A study of Homo sapiens with 15 samples.

Results

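The 43 genes described here are a fixed list of interferon-stimulated genes, out of 58381 genes listed for each library of a prostate cancer cell line series. They were taken by symbol and not by a cut on measured values, but with earlier results of these data known. All 43 were found in the gene counts. Of these, 35 had enough reads to be tested together with 19621 genes in all, 6 others had between 1 and 13 fragments summed over the 15 libraries, and IFI27 and XAF1 had 0.

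RNA was sequenced from 5 sublines of VCaP, a prostate cancer line grown from a vertebral metastasis, with 3 replicate libraries each. All sublines shared RPMI 1640 medium with 10% DCC-FBS, a charcoal-stripped serum, and a first 7 months at 10 nM testosterone, which gave the androgen-dependent VCaP-T. VCaP-CT came from VCaP-T after a further 10 months, at 0.1 nM testosterone by the protocol text, whereas the sample label gives 10 nM for this period as well. VCaP-CT-ER came from VCaP-CT kept in 10 µM enzalutamide, an antiandrogen, until it grew again. VCaP-CT-BR came from VCaP-CT kept in bicalutamide, an older antiandrogen, until resistant, and its label also mentions enzalutamide afterwards. VCaP-CT-BR-ER came from VCaP-CT-BR kept in enzalutamide until resistant. The doses of bicalutamide, and of enzalutamide for VCaP-CT-BR-ER, are not given in the labels. The 4 steps are called the low-testosterone step (VCaP-T to VCaP-CT), the first enzalutamide step (VCaP-CT to VCaP-CT-ER), the bicalutamide step (VCaP-CT to VCaP-CT-BR) and the second enzalutamide step, which leads to VCaP-CT-BR-ER. Each subline was derived once, so drug, time in culture and the history of that one derivation cannot be told apart, and the p-values measure the spread between the replicate libraries of these single derivations. The study's reporting form calls the replicates biological, without saying how they were grown apart.

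Interferons are secreted cytokines that cells release on sensing viral nucleic acid. Type I and type III interferons bind their receptors, Janus kinases phosphorylate signal transducers, and a complex that contains STAT2 and IRF9 enters the nucleus and binds the interferon-stimulated response element of many target promoters. The products degrade foreign RNA, block translation and membrane fusion, tag proteins with ISG15, or raise sensing further, and many are expressed at a low basal level by tumour cells without added interferon.

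The libraries held 33665716 to 46935279 assigned fragments, so that 3 fragments, the limit that a count of 0 allows, correspond to 0.0639 to 0.0891 CPM, the count scaled to a common library size. All levels are CPM on library sizes scaled by the trimmed mean of M-values, and intervals of this kind cover counting error only. Replicates correlated at 0.9964 or better within a subline against at most 0.9866 between sublines, over 18215 genes on the log2 scale. The 9 prostate and VCaP identity genes, such as KLK2, ERG and HOXB13, summed to at least 6081 CPM in every library, but sublines differed. The VCaP-T sums were highest, at 22660 to 23495, and those of VCaP-CT-BR-ER lowest, at 6081 to 6298. Between them lay VCaP-CT-ER (11885 to 12729), VCaP-CT (10691 to 11429) and VCaP-CT-BR (7454 to 7838). KLK2 alone was the larger part of every sum. At the low-testosterone step 8 of the 9 genes fell, KLK3 among them, and HOXB13 rose (adjusted p under 0.05, edgeR). The 13 markers of leukocytes, fibroblasts and endothelium summed to between 69.2 and 79.4 CPM per VCaP-T library, between 11.3 and 12.7 per VCaP-CT library and between 2.26 and 4.03 in the other sublines. COL1A2 and CD3E were at 0 throughout and PTPRC had no fragment outside VCaP-CT-BR, where its mean was 0.034 CPM, while LYZ alone gave 52.7 ± 7.06 CPM in VCaP-T (SD, n = 3). Other markers were detected too: VCaP-T libraries had 10.2 to 13.2 CPM of VWF, 5.83 to 7.27 of COL1A1 and 2.86 to 3.01 of PECAM1. CD14 had 0.0544 to 0.942 CPM over all libraries. DCN reached 0.397 to 0.456 CPM in VCaP-CT-ER and 0.34 to 0.498 in VCaP-CT-BR-ER, against at most 0.198 elsewhere. In a bulk library fewer cells that express a gene and less RNA per cell cannot be told apart, and the part of these markers in the results below was not tested.

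Many interferon-stimulated genes carry a short response element near their start, and 8 promoters are printed here because the results turn on these genes. They are PARP14 and DTX3L of the chromosome 3 cluster, and OAS3, DDX60 and TLR3, which were higher after both enzalutamide steps. The others are ISG20, highest in VCaP-T, IFITM3, lowest in VCaP-CT-ER, and OAS1, which fell at the bicalutamide step and rose at the enzalutamide step after it. Each run covers 160 bases before and 10 bases after the RefSeq start (GRCh38.p14), 5′ to 3′ along the gene. Capitals mark the core of the interferon-stimulated response element, which is GAAA, any 2 bases and GAAA again, or its reverse complement.
PARP14: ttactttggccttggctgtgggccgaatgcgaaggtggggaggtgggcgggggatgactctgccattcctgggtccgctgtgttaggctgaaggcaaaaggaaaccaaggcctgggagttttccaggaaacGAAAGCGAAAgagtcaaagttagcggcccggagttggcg
DTX3L: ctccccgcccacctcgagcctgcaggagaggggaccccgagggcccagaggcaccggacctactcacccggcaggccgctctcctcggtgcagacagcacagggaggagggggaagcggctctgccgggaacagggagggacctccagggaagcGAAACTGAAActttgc
OAS3: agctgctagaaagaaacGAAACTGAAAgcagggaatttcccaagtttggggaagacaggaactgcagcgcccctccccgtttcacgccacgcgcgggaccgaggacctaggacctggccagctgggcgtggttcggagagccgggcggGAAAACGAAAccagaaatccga
DDX60: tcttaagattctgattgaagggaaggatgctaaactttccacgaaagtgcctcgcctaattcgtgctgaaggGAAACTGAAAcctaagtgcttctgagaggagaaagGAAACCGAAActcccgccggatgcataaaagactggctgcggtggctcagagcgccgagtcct
TLR3: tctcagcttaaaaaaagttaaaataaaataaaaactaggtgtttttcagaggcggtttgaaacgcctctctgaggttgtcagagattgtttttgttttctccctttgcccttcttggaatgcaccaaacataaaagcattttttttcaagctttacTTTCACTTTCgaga
ISG20: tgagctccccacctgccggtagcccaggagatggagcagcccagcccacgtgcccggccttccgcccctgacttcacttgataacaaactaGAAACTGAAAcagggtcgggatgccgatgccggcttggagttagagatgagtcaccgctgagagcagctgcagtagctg
IFITM3: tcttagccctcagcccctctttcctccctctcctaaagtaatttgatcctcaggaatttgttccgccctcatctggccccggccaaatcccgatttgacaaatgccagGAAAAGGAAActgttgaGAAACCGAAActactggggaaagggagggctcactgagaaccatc
OAS1: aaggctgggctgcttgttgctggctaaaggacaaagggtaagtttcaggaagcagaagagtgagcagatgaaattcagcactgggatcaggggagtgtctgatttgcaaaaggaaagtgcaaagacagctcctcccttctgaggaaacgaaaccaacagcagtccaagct
The positions were PARP14 chr3:122680679-122680848 on the plus strand, DTX3L chr3:122564178-122564347 on the plus strand, OAS3 chr12:112938314-112938483 on the plus strand, DDX60 chr4:168318743-168318912 on the minus strand, TLR3 chr4:186068996-186069165 on the plus strand, ISG20 chr15:88638856-88639025 on the plus strand, IFITM3 chr11:320851-321020 on the minus strand and OAS1 chr12:112906802-112906971 on the plus strand.

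This core was found, on either strand, in 996 of 27305 RefSeq promoter windows of 300 bases (3.65%). Of the 43 interferon-stimulated genes, 35 had such a window and 23 of these held it (65.7%). A shorter core that the interferon gamma pathway uses, TTC and GAA with any 3 bases between, was in 2152 windows (7.88%) and in 10 of the 35 (28.6%). The OAS3 window held the response element core 143 and 12 bases before the start, DDX60 at 88 and 53 bases, IFITM3 at 52 and 35, ISG20 at 69, PARP14 at 29, DTX3L at 6 and TLR3, on the reverse strand, at 4. The OAS1 window held no exact match. PARP9, HERC6, CMPK2, RSAD2, STAT2, IRF1, IRF9, IFI35, SP100, SAMD9L and XAF1 also had none. These matches describe the sequence and were not tested as binding sites.

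As a group the interferon-stimulated genes were low in these cells. The median of the 35 tested genes was 3.74 CPM averaged over the 15 libraries, against 9.08 CPM for all tested genes, and 9 of them (25.7%) were above 10 CPM against 48.8% of all tested genes. Per kilobase of annotated exon, LGALS3BP, a secreted galectin-binding glycoprotein, was the highest at 60.6 CPM per kb, followed by STAT2 at 10.6, OAS3 at 8.02, DTX3L at 7.84 and EIF2AK2 at 7.02. PARP9 reached 4.31 and ISG15 4.13 CPM per kb, while MX1, a dynamin-like antiviral GTPase, was at 0.146 and IFIT1, which binds foreign RNA caps, at 0.0973 CPM per kb. Several genes that are often prominent in an interferon response were near the limit of detection, as IFI27, IFI44L, OASL, IRF7, IFITM1, SAMD9L and XAF1 had at most 2 fragments in any library and TRIM22 at most 4. IFITM1 lies within IFITM2 on the same strand, so its low count may also come from the counting.

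Of the 35 tested genes, 24 were above the filter level of 0.26 CPM in all 15 libraries. The other 11 were not, and 5 of them passed only through a single subline: IFIT3, IFITM2, OAS2 and SP100 through VCaP-T and SAMD9 through VCaP-CT. A gene that enters the test because it is high in one subline had to differ, so the counts over the 35 are a description of the list.

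The heatmap of the tested genes shows that they did not move together. By mean level VCaP-T was the highest subline for 14 of the 35, VCaP-CT-ER for 8, VCaP-CT-BR for 5, and VCaP-CT and VCaP-CT-BR-ER for 4 each. For all tested genes the shares highest in these sublines were 30.4% for VCaP-T, 19.1% for VCaP-CT-ER, 18.6% for VCaP-CT-BR, 18.3% for VCaP-CT and 13.6% for VCaP-CT-BR-ER. Of the 14 for VCaP-T, IFIT3, IFITM2, OAS2 and SP100 passed the filter only through that subline, as SAMD9 did through VCaP-CT. Where these genes were highest was given in advance, so the counts are no result about the list. The CPM summed over the 43 genes was lowest for VCaP-T at 482 to 513 and highest for VCaP-CT-BR-ER at 725 to 743, VCaP-CT libraries having 641 to 699, VCaP-CT-ER libraries 609 to 617 and VCaP-CT-BR libraries 595 to 636, and LGALS3BP, at 134 to 321 CPM by subline mean, made up a large share of it.

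**Figure D1:**
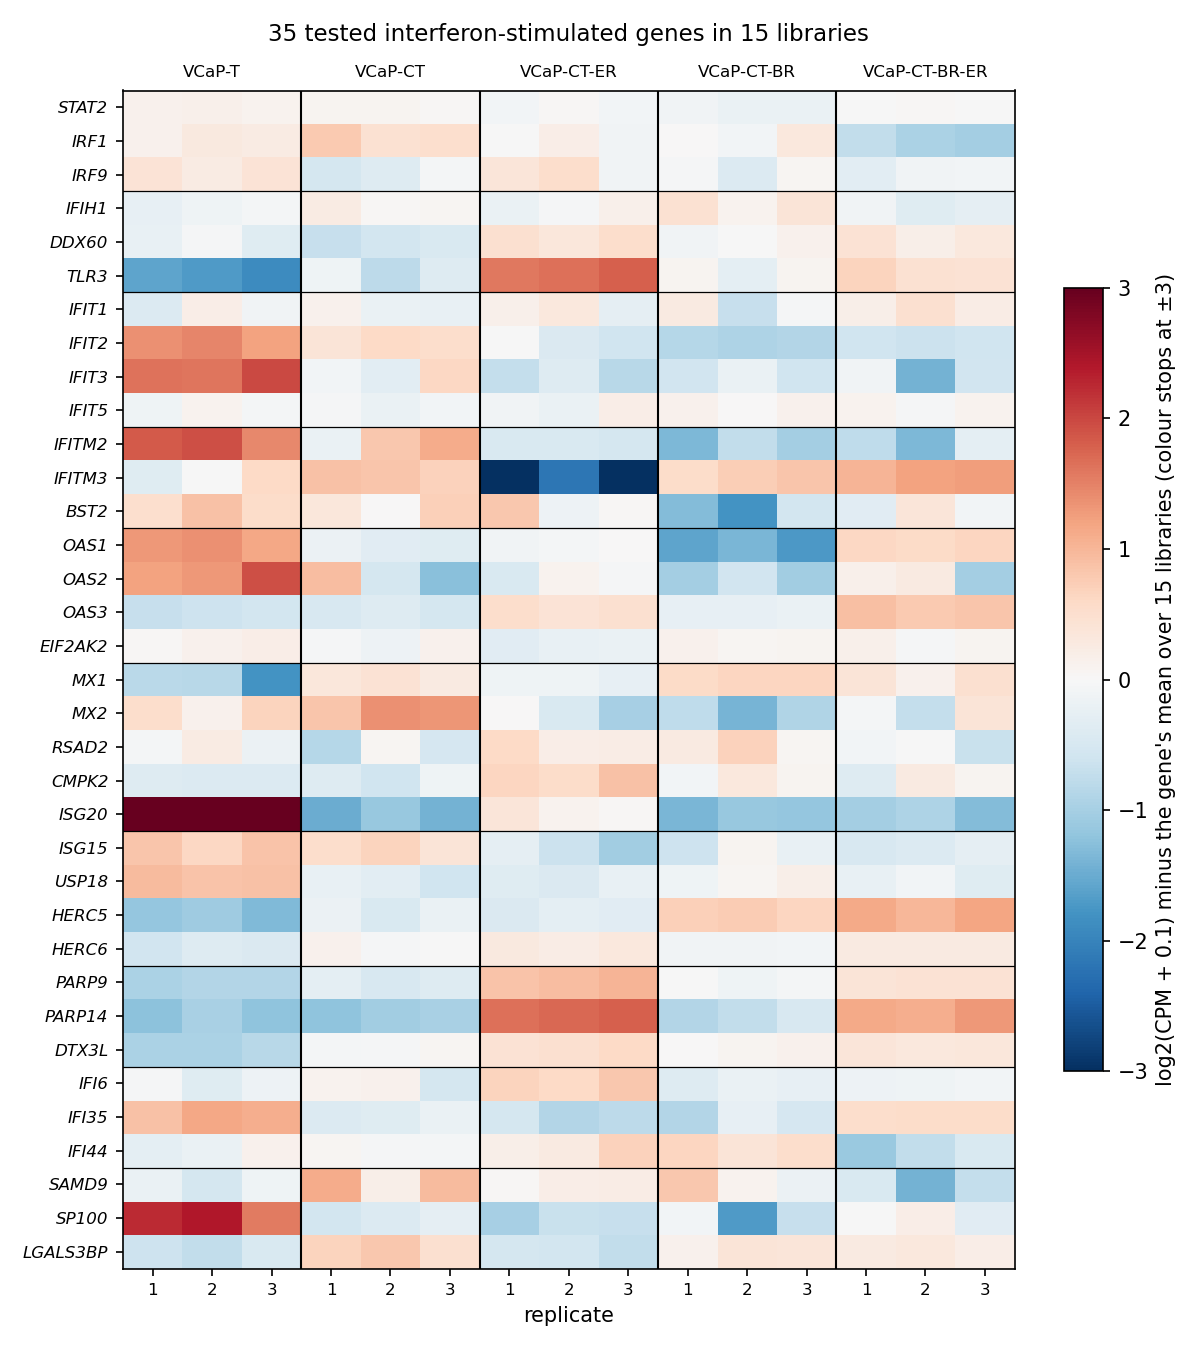
Each row is 1 of the 35 tested interferon-stimulated genes, ordered by role, and each column is 1 of the 15 libraries. Colour gives log2(CPM + 0.1) minus the mean of the gene over all libraries, and stops at ±3. ISG20, SP100, IFIT3 and IFITM2 are red in the VCaP-T columns, PARP14 and TLR3 are red in VCaP-CT-ER, and IFITM3 is dark blue in VCaP-CT-ER alone. SP100, IFIT3 and IFITM2 passed the filter only through VCaP-T, so their high level there was given in advance.

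At the low-testosterone step 12 of the 35 tested genes rose and 11 fell at an adjusted p under 0.05, by edgeR's quasi-likelihood test with Benjamini-Hochberg adjustment over all tested genes. Among all 19621 genes 33.1% rose and 32.2% fell, so the counts of 34.3% and 31.4% were near the background. The median log2 fold change was -0.01 for the interferon-stimulated genes and 0.03 for all genes. Changes of at least 2-fold were 4 up and 8 down, 11.4% and 22.9% of the tested genes (all genes 8.6% and 12.2%). SAMD9 among the 4, and IFITM2, OAS2, IFIT3 and SP100 among the 8, passed the filter only through their higher subline. Their direction at this step was given in advance, so these shares are no result about the list. The same genes are also in the counts of 12 and 11. The rise took in TLR3, MX1, LGALS3BP, HERC5 and DTX3L, and the fall took in ISG20, OAS1, IFI35, USP18 and IFIT2.

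At the first enzalutamide step 14 rose and 10 fell, 40.0% and 28.6% of the tested genes, with a background of 29.6% up and 31.2% down. The median was -0.08 against -0.02 for all genes. At least 2-fold higher were 6, or 17.1% (background 7.96%), and at least 2-fold lower 5, or 14.3% (background 9.58%). PARP14, TLR3, ISG20, PARP9, CMPK2 and DDX60 were the 6, and IFITM3, IFITM2, MX2, LGALS3BP and ISG15 the 5. Without VCaP-CT replicate 3 the adjusted p of IFITM2 was 0.0548 (edgeR).

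At the bicalutamide step 10 rose and 9 fell, 28.6% and 25.7% of the tested genes (background 26.1% and 27.0%), with a median of -0.01 against -0.02. None rose by 2-fold or more (background 2.95%), although HERC5 came near with 1.99-fold. At least 2-fold lower were 5, or 14.3% (background 7.01%). This comparison and the one before share the VCaP-CT libraries, so their values are not independent.

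The second enzalutamide step was the least balanced: 13 rose and 4 fell, that is 37.1% and 11.4% of the tested genes, where 21.2% and 21.7% of all genes did. The median was 0.27 against 0.0 for all genes. At least 2-fold higher were OAS1, PARP14, BST2, MX2, IFI35 and OAS3, 6 genes or 17.1% against a background of 4.21%, and at least 2-fold lower were IRF1, IFI44 and SAMD9, 8.57% against 3.77%. Of these, MX2 lost its call without VCaP-CT-BR-ER replicate 3 or VCaP-CT-BR replicate 2 (adjusted p 0.137 and 0.0838), BST2 without VCaP-CT-BR-ER replicate 2 or VCaP-CT-BR replicate 1 or 2 (0.073, 0.051 and 0.0727), and SAMD9 without VCaP-CT-BR-ER replicate 2 or VCaP-CT-BR replicate 1 (0.0631 and 0.0982). The list was chosen with results known and no set test was run, so these counts describe these 35 genes alone.

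**Figure D2:**
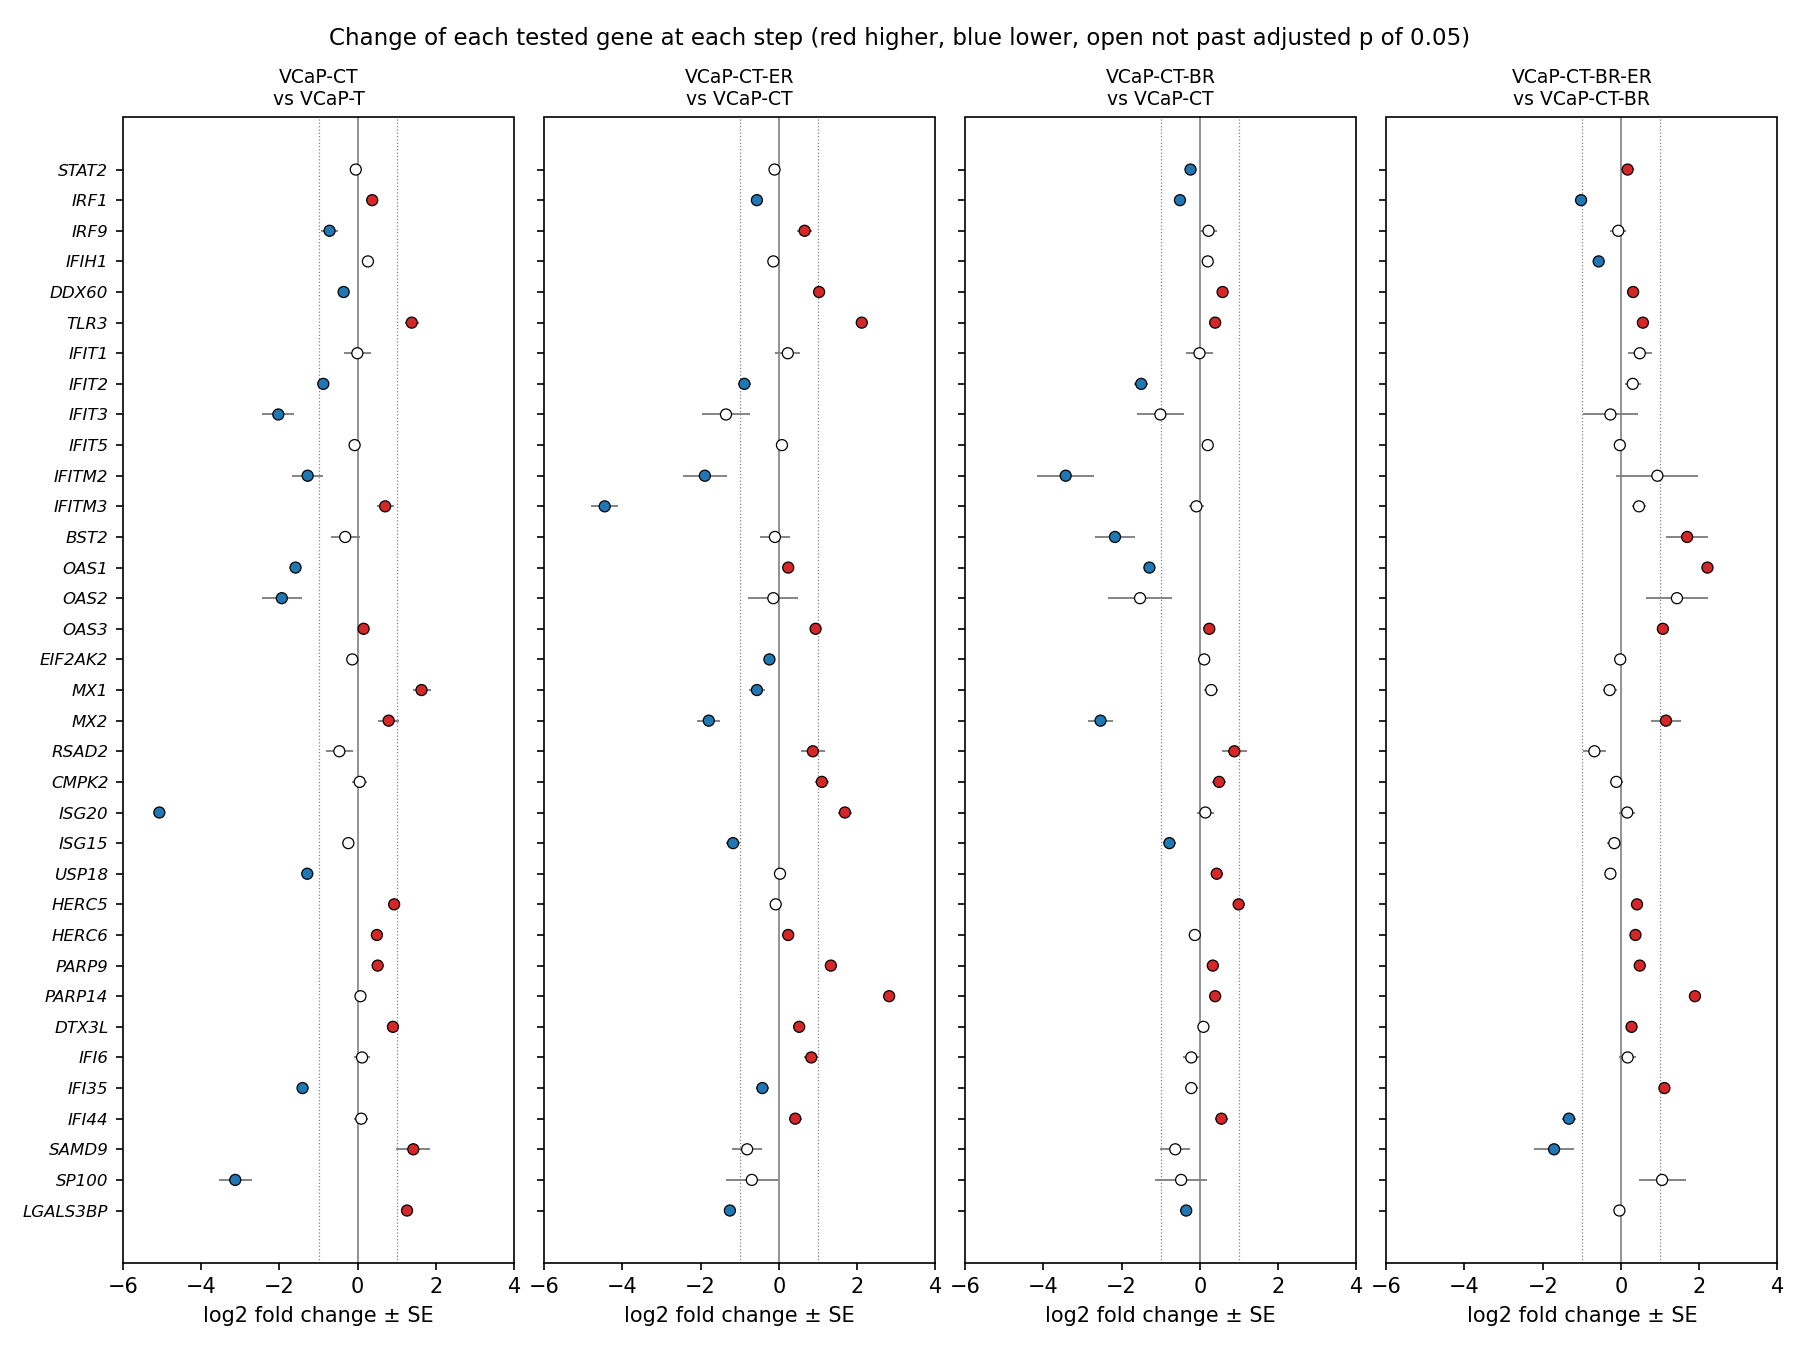
Each panel is 1 derivation step and each row 1 tested gene. Points give the edgeR log2 fold change and bars its standard error, filled where the adjusted p was under 0.05 (red higher, blue lower), and dotted lines mark 2-fold. PARP9, PARP14, DTX3L, OAS1, OAS3, TLR3, DDX60 and HERC6 are red in both enzalutamide panels, and ISG20 in the low-testosterone panel lies farthest to the left.

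The PARP9, DTX3L and PARP14 genes lie close together on chromosome 3 and belong to the same stress and antiviral pathway. PARP9 is a macrodomain protein that pairs with the ubiquitin ligase DTX3L, and PARP14 is a mono-ADP-ribosyltransferase. All 3 rose at both enzalutamide steps and each step difference was itself called.

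PARP14 had 4.35, 5.14 and 4.4 CPM in the VCaP-T libraries, 4.41, 4.96 and 5.14 in the VCaP-CT libraries, 32.7, 34.1 and 35.8 in the VCaP-CT-ER libraries, 5.57, 6.07 and 7.36 in the VCaP-CT-BR libraries, and 22.7, 22 and 25.6 in the VCaP-CT-BR-ER libraries. The libraries of both enzalutamide-resistant sublines stood above every library of the other sublines. It rose 7.07-fold at the first enzalutamide step (log2 2.82 ± 0.1 SE, adjusted p = 6.55e-16, edgeR) and 3.7-fold at the second enzalutamide step (log2 1.89 ± 0.09, adjusted p = 1.11e-12). The first of these steps was larger by 0.94 ± 0.14 on the log2 scale (adjusted p = 9.17e-06, edgeR). VCaP-CT and VCaP-T did not pass the test (1.05-fold, adjusted p = 0.635, edgeR), and the 1.31-fold rise in VCaP-CT-BR had adjusted p = 0.0053, or 0.0535 without VCaP-CT-BR replicate 3.

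PARP9 had 18.1, 19.1 and 19 CPM in the VCaP-T libraries, 28.3, 25.2 and 26.6 in the VCaP-CT libraries, 63.6, 66.2 and 71.4 in the VCaP-CT-ER libraries, 34.7, 32.2 and 33.6 in the VCaP-CT-BR libraries, and 45.5, 47.3 and 47.2 in the VCaP-CT-BR-ER libraries. Its levels followed the order VCaP-T, VCaP-CT, VCaP-CT-BR, VCaP-CT-BR-ER and VCaP-CT-ER, with no overlap between neighbours and every neighbouring pair past the edgeR threshold. The rise was 2.51-fold at the first enzalutamide step (log2 1.33 ± 0.06, adjusted p = 4.4e-14, edgeR) and 1.39-fold at the second enzalutamide step (log2 0.48 ± 0.06, adjusted p = 1.03e-06).

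DTX3L ranged from 22.4 to 24.5 CPM in VCaP-T, the lowest subline, and from 41.7 to 65.7 CPM in the others. It rose 1.87-fold already at the low-testosterone step (adjusted p = 2.3e-11, edgeR), then 1.43-fold at the first enzalutamide step (adjusted p = 8.73e-08) and 1.2-fold at the second enzalutamide step (adjusted p = 0.000629). PARP9 and DTX3L overlap on opposite strands and the counting did not use strand, so fragments in the overlap could not be assigned to one of them. The other tested genes starting within 1 Mb were set beside PARP14: at the first enzalutamide step the median over 20 genes around PARP14 was 0.37 on the log2 scale, with 14 up and 2 down, and at the second enzalutamide step it was -0.03. Around PARP9 and DTX3L the median over 20 genes at the first of these steps was 0.43 (quartiles 0.18 and 0.64), against 1.33 for PARP9 and 0.52 for DTX3L, which lay within the quartiles. For the difference between the steps it was 0.42, against 0.25 for DTX3L.

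**Figure D3:**
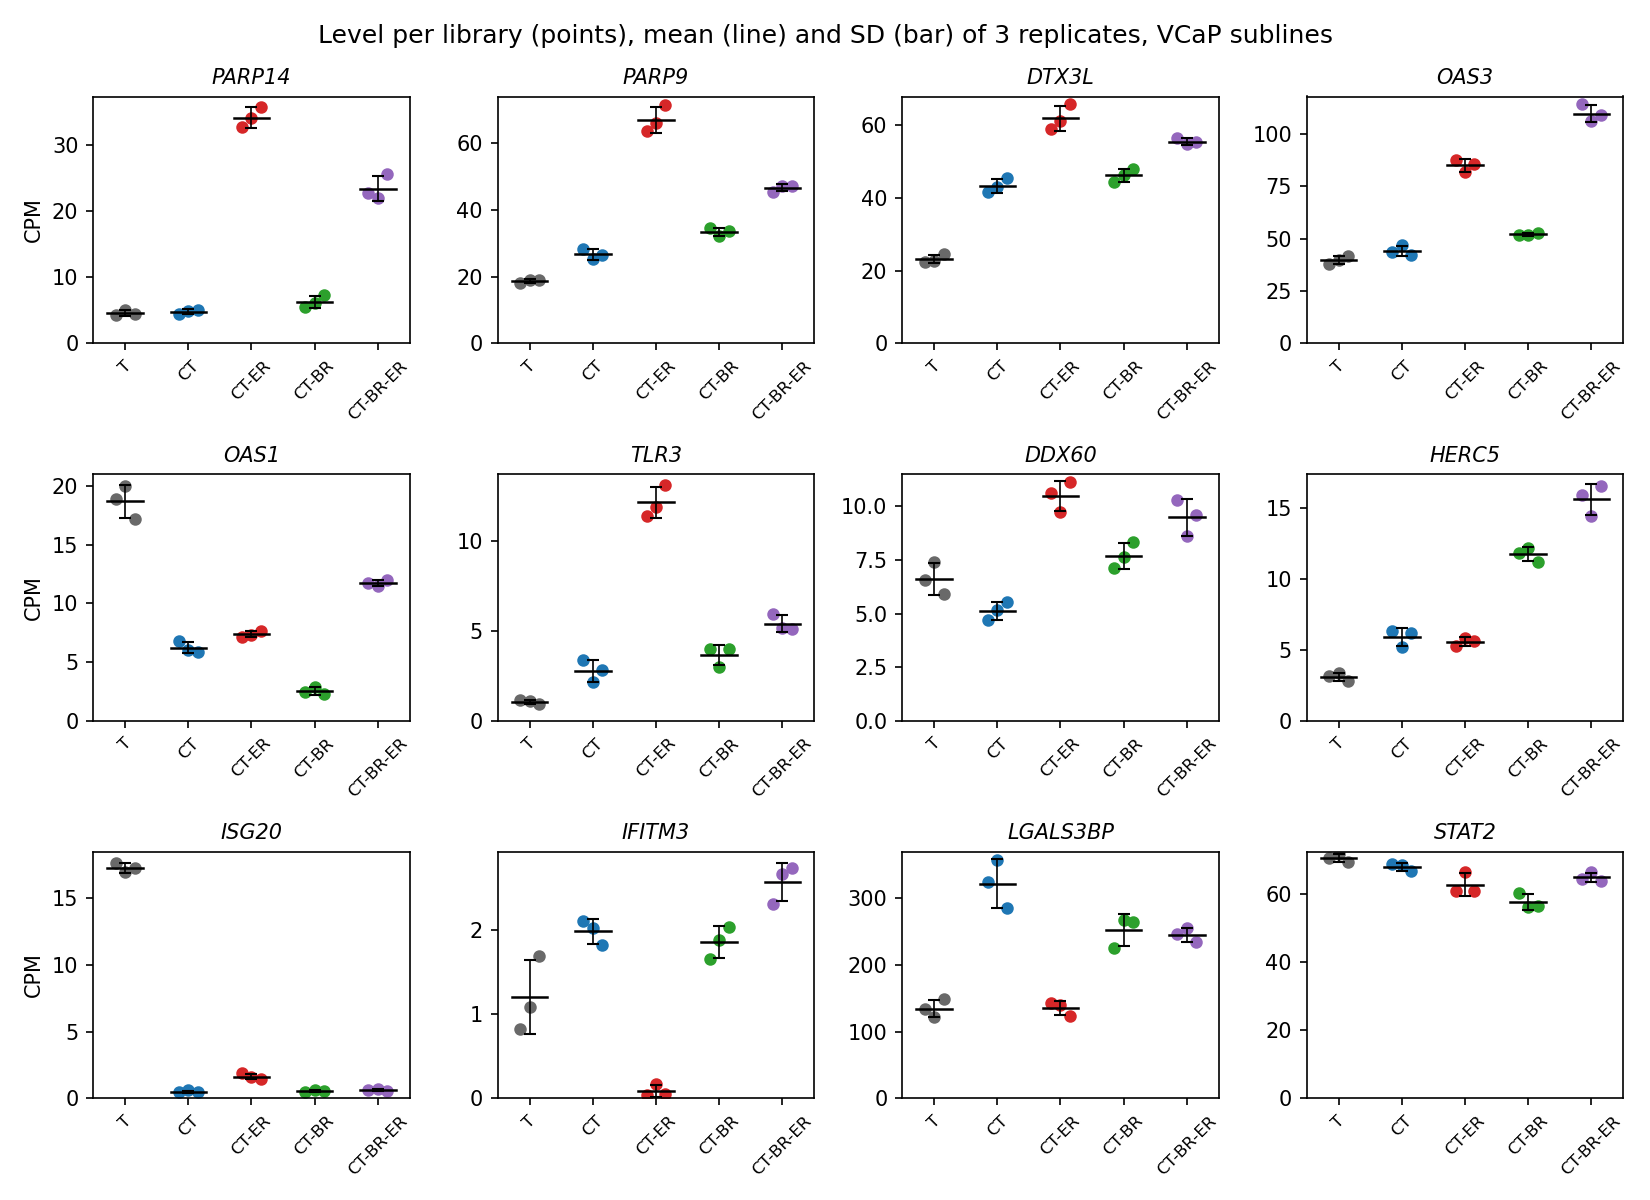
CPM per library (points), mean (line) and SD (bar) of 3 replicates are plotted for 12 genes, each on its own linear axis from 0, with sublines along the horizontal axis. PARP14 and OAS3 are highest in both enzalutamide-resistant sublines, HERC5 in the 2 with a bicalutamide history and ISG20 in VCaP-T, and IFITM3 is near 0 in VCaP-CT-ER.

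The sensors of double-stranded RNA split. TLR3, the endosomal receptor, had 1.18, 1.09 and 0.942 CPM in the VCaP-T libraries, 3.38, 2.14 and 2.85 in the VCaP-CT libraries, 11.4, 11.9 and 13.1 in the VCaP-CT-ER libraries, 3.99, 3.01 and 3.97 in the VCaP-CT-BR libraries, and 5.95, 5.15 and 5.09 in the VCaP-CT-BR-ER libraries. It was lowest in VCaP-T and highest in VCaP-CT-ER, where no library overlapped those of any other subline. TLR3 rose 2.61-fold at the low-testosterone step (log2 1.38 ± 0.18, adjusted p = 1.17e-06, edgeR), 4.35-fold at the first enzalutamide step (log2 2.12 ± 0.13, adjusted p = 1.09e-11) and 1.48-fold at the second enzalutamide step (log2 0.56 ± 0.13, adjusted p = 0.00183). The VCaP-CT-BR libraries overlapped VCaP-CT, and the 1.31-fold difference (adjusted p = 0.0314, edgeR) lost the call when any one of VCaP-CT-BR replicates 1 and 3 or VCaP-CT replicates 2 and 3 was left out, with adjusted p of 0.118, 0.114, 0.18 and 0.0537, and with 75th percentile scaling (0.0512) or only the libraries compared (0.0732). Around TLR3 on chromosome 4 the median of 15 neighbours was -0.41 (log2) at the first enzalutamide step, against its own 2.12.

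DDX60, a helicase that assists the cytosolic RNA sensors, had 6.55, 7.4 and 5.91 CPM in the VCaP-T libraries, 4.71, 5.15 and 5.53 in the VCaP-CT libraries, 10.6, 9.73 and 11.1 in the VCaP-CT-ER libraries, 7.1, 7.61 and 8.33 in the VCaP-CT-BR libraries, and 10.3, 8.59 and 9.57 in the VCaP-CT-BR-ER libraries. VCaP-CT was the lowest subline, and all antiandrogen-treated sublines lay above it. DDX60 rose 2.04-fold at the first enzalutamide step (log2 1.03 ± 0.1, adjusted p = 2.11e-08, edgeR) and 1.5-fold at the bicalutamide step (adjusted p = 0.000105). The further rise of 1.24-fold at the second enzalutamide step (adjusted p = 0.015, edgeR) was not past the threshold without VCaP-CT-BR-ER replicate 1 (0.0786) or VCaP-CT-BR replicate 1 (0.0594). Its 7 tested neighbours had a median of 0.65 at the first enzalutamide step.

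IFIH1, which encodes the cytosolic sensor MDA5, had 5.01, 5.47 and 5.7 CPM in the VCaP-T libraries, 7.13, 6.15 and 6.2 in the VCaP-CT libraries, 5.2, 5.81 and 6.66 in the VCaP-CT-ER libraries, 8.22, 6.41 and 7.78 in the VCaP-CT-BR libraries, and 5.51, 4.61 and 4.9 in the VCaP-CT-BR-ER libraries. No pair of sublines next to each other in level passed the test, and the one step called was a fall of 1.49-fold at the second enzalutamide step (log2 -0.57 ± 0.11, adjusted p = 0.000318, edgeR). The low-testosterone step was called with 75th percentile scaling (0.0256) and with only the libraries compared (0.0416). The 9 tested neighbours of IFIH1 on chromosome 2 had a median of -1.23 at the second enzalutamide step. The difference between the enzalutamide steps, 0.43 ± 0.16 (log2, adjusted p = 0.0311, edgeR), was not past the threshold when any of 7 libraries was left out (adjusted p up to 0.0893).

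Of 13 further sensors and adaptors, 9 were tested, and at each of the 4 steps 2 or 3 rose and 3 fell, counts near the background of 21.2% to 33.1% up and 21.7% to 32.2% down. ADAR, the editing enzyme that keeps cellular double-stranded RNA from being sensed, was the most abundant at 767 ± 28.6 CPM in VCaP-T (SD, n = 3) against 813 ± 20.5 in VCaP-CT. It rose to 1098 ± 27.1 at the first enzalutamide step (1.35-fold, adjusted p = 2.25e-08, edgeR), 1005 ± 28.2 at the bicalutamide step (1.24-fold, adjusted p = 5.04e-06) and 1194 ± 30 after the second enzalutamide step (1.19-fold over VCaP-CT-BR, adjusted p = 8.24e-05). STING1, the adaptor of DNA sensing, fell at all 3 antiandrogen steps, from a VCaP-CT level of 13.3 ± 0.795 CPM down to 4.71 ± 0.407 with enzalutamide and 6.57 ± 0.332 with bicalutamide, and on to 2.48 ± 0.303 after the second enzalutamide step, with adjusted p between 4.81e-12 and 3.99e-09 (edgeR). DDX58, which encodes the RNA sensor RIG-I, fell 2-fold at the first enzalutamide step (adjusted p = 1.5e-08, edgeR) and 1.59-fold at the second (adjusted p = 1.47e-05). CGAS, IFI16 and AIM2 had a mean of at most 0.0287 CPM in any subline.

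The tested regulators of the response, STAT2, IRF9 and IRF1, changed by at most 2.03-fold at any step. STAT2, the signal transducer of the type I pathway, had 70.3, 71.5 and 69.3 CPM in the VCaP-T libraries, 68.6, 68.3 and 66.5 in the VCaP-CT libraries, 60.8, 66.4 and 60.7 in the VCaP-CT-ER libraries, 60.1, 56 and 56.3 in the VCaP-CT-BR libraries, and 64.2, 66.3 and 63.8 in the VCaP-CT-BR-ER libraries. Neither the low-testosterone nor the first enzalutamide step passed the test (adjusted p = 0.354 and 0.0547, edgeR), although the latter did with 75th percentile scaling (0.0353) or without VCaP-CT-ER replicate 2 (0.0258). VCaP-CT-BR was 1.18-fold below VCaP-CT (log2 -0.24 ± 0.05, adjusted p = 0.000436, edgeR) and the second enzalutamide step was a rise of 1.13-fold (adjusted p = 0.00826).

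IRF9, its DNA-binding partner, had 1.6, 1.42 and 1.6 CPM in the VCaP-T libraries, 0.785, 0.883 and 1.12 in the VCaP-CT libraries, 1.55, 1.73 and 1.09 in the VCaP-CT-ER libraries, 1.14, 0.863 and 1.24 in the VCaP-CT-BR libraries, and 0.923, 1.08 and 1.1 in the VCaP-CT-BR-ER libraries. It fell 1.65-fold at the low-testosterone step (adjusted p = 0.00432, edgeR) and rose 1.58-fold at the first enzalutamide step (adjusted p = 0.00819), where 1 library overlapped VCaP-CT. IRF9 had 724 fragments in all, and a gene on the same strand that overlaps it had 519, so its level is uncertain. The difference between the enzalutamide steps, 0.73 ± 0.29 on the log2 scale (adjusted p = 0.0454, edgeR), was not past the threshold when any of 9 libraries was left out (0.0518 to 0.12), nor with 75th percentile scaling (0.0548), no filter on low counts (0.0588), only the libraries compared (0.0523) or DESeq2 (0.0745). The 54 tested neighbours of IRF9 on chromosome 14 had a median of 0.46 at the first enzalutamide step, with 37 up and 7 down, against 0.66 for IRF9.

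IRF1, a factor of the interferon gamma response, had 3.85, 4.36 and 4.21 CPM in the VCaP-T libraries, 6.13, 4.87 and 5.09 in the VCaP-CT libraries, 3.48, 4.09 and 3.28 in the VCaP-CT-ER libraries, 3.55, 3.32 and 4.39 in the VCaP-CT-BR libraries, and 2.07, 1.79 and 1.68 in the VCaP-CT-BR-ER libraries. The VCaP-CT-BR-ER libraries lay below all others, 2.03-fold under VCaP-CT-BR (log2 -1.02 ± 0.15, adjusted p = 7.21e-06, edgeR). IRF1 was also lower in VCaP-CT-ER (1.48-fold, adjusted p = 0.00057, edgeR) and VCaP-CT-BR (1.42-fold, adjusted p = 0.00197) than in VCaP-CT, and 1.29-fold higher in VCaP-CT than in VCaP-T (adjusted p = 0.0138, or 0.102 without VCaP-CT replicate 1 and 0.0687 without VCaP-T replicate 1). The antisense gene IRF1-AS1 had 883 fragments against 2187, and without strand the shared ones cannot be told apart. The 24 tested neighbours of IRF1 on chromosome 5 had a median of -0.59 at the second enzalutamide step, with 1 up and 14 down.

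IRF7, which amplifies interferon production, was not tested and had 0.0275, 0.0272 and 0.0235 CPM in the VCaP-T libraries, 0, 0.0285 and 0 in the VCaP-CT libraries, 0, 0 and 0.0497 in the VCaP-CT-ER libraries, 0, 0 and 0.0496 in the VCaP-CT-BR libraries, and 0, 0.0271 and 0 in the VCaP-CT-BR-ER libraries, that is 9 fragments in 15 libraries and at most 2 in one.

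Upstream of these regulators, transcripts of interferon itself were near the limit of detection. The 21 interferon genes summed to at most 0.0787 CPM in any library, close to the value of 3 fragments, and none could be tested. All 9 receptor and kinase genes were tested: at the first enzalutamide step 1 rose and 5 fell, at the bicalutamide step 0 rose and 3 fell, at the second enzalutamide step 1 rose and 2 fell, and at the low-testosterone step 0 rose and 5 fell. Among all genes 29.6%, 26.1%, 21.2% and 33.1% rose and 31.2%, 27.0%, 21.7% and 32.2% fell at these steps in the same order, and with 9 genes nothing particular to them is read from the counts. JAK2, a kinase of the interferon gamma receptor, was the one that rose, 1.87-fold at the first enzalutamide step (adjusted p = 7.3e-05, edgeR) and 1.59-fold at the second enzalutamide step (adjusted p = 0.00186). IFNGR2, a chain of that receptor, was 2.53-fold lower in VCaP-CT-ER (adjusted p = 1.4e-06, edgeR) and 2.47-fold lower in VCaP-CT-BR (adjusted p = 4.15e-06) than in VCaP-CT. IFNLR1, the specific chain of the interferon lambda receptor, fell 2.28-fold at the first enzalutamide step (adjusted p = 1.91e-06, edgeR) and 1.69-fold at the second enzalutamide step (adjusted p = 0.000772).

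Of 10 negative regulators 9 were tested. At the first enzalutamide step 1 rose and 3 fell, at the bicalutamide step 2 rose and 3 fell, at the second enzalutamide step 0 rose and 2 fell, and at the low-testosterone step 3 rose and 3 fell, beside the same background. TREX1, a DNA-degrading exonuclease, was listed at 0 in all 15 libraries, as were TAP1, PSMB8 and PSMB9 of antigen processing. The counting left out multi-mapping fragments, and whether the counting rules gave these zeros was not tested.

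The 2',5'-oligoadenylate synthetases, which activate RNase L when they bind double-stranded RNA, differed from each other. OAS3 had 37.9, 40 and 41.5 CPM in the VCaP-T libraries, 43.5, 47 and 42.2 in the VCaP-CT libraries, 87.6, 81.6 and 85.8 in the VCaP-CT-ER libraries, 51.8, 51.6 and 52.9 in the VCaP-CT-BR libraries, and 114, 106 and 109 in the VCaP-CT-BR-ER libraries. The ranges of the 5 sublines did not overlap, and both enzalutamide-resistant sublines were highest. OAS3 rose 1.92-fold at the first enzalutamide step (log2 0.94 ± 0.05, adjusted p = 2.92e-12, edgeR) and 2.1-fold at the second enzalutamide step (log2 1.07 ± 0.05, adjusted p = 1.06e-12). The difference between these steps was -0.13 ± 0.08 on the log2 scale (adjusted p = 0.159, edgeR). The 1.11-fold rise at the low-testosterone step (adjusted p = 0.0202, edgeR) lost the call without VCaP-CT replicate 2 (0.139) or VCaP-T replicate 1 (0.15), and with DESeq2 (0.053), only the libraries compared (0.0595) or no filter on low counts (0.0715).

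OAS1 had 18.9, 20 and 17.2 CPM in the VCaP-T libraries, 6.76, 6.04 and 5.9 in the VCaP-CT libraries, 7.14, 7.31 and 7.67 in the VCaP-CT-ER libraries, 2.49, 2.88 and 2.26 in the VCaP-CT-BR libraries, and 11.7, 11.5 and 12 in the VCaP-CT-BR-ER libraries. VCaP-T was highest and VCaP-CT-BR lowest, and no 2 sublines overlapped. OAS1 fell 3-fold at the low-testosterone step (log2 -1.59 ± 0.09, adjusted p = 8.43e-13, edgeR) and 2.45-fold more at the bicalutamide step (log2 -1.29 ± 0.11, adjusted p = 2.22e-09), then rose 4.62-fold at the second enzalutamide step (log2 2.21 ± 0.1, adjusted p = 1.52e-13). The rise at the first enzalutamide step was 1.18-fold (adjusted p = 0.0248, edgeR), and it lost the call without VCaP-CT-ER replicate 3 (0.0566), VCaP-CT replicate 2 (0.0687) or VCaP-CT replicate 3 (0.0715). OAS1 and OAS3 are neighbours on chromosome 12, and the other 24 tested genes within 1 Mb of OAS1 had a median of 0.03 at the second enzalutamide step, with 8 up and 0 down.

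OAS2, on the far side of OAS3 from OAS1, had 92 fragments in the 3 VCaP-T libraries and 8 to 25 in each other subline. EIF2AK2, which encodes the translation-blocking kinase PKR, had 76.8, 82 and 86.4 CPM in the VCaP-T libraries, 73.2, 67.7 and 81.4 in the VCaP-CT libraries, 59.6, 63.8 and 64.9 in the VCaP-CT-ER libraries, 82.3, 78.3 and 79 in the VCaP-CT-BR libraries, and 83.6, 73.3 and 79.4 in the VCaP-CT-BR-ER libraries. VCaP-CT-ER was lowest, 1.18-fold below VCaP-CT (log2 -0.24 ± 0.07, adjusted p = 0.00355, edgeR, or 0.0596 without VCaP-CT replicate 3), and the other 3 steps did not pass the test (adjusted p = 0.0653, 0.178 and 0.835). At the low-testosterone step DESeq2 gave 0.0376, RLE size factors 0.0354, at least 10 counts in every library 0.037 and no filter on low counts 0.0444. OASL, the enzymatically inactive relative, was not tested.

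ISG20, a 3' to 5' exonuclease that degrades single-stranded RNA, had 17.6, 16.9 and 17.2 CPM in the VCaP-T libraries, 0.453, 0.598 and 0.475 in the VCaP-CT libraries, 1.88, 1.57 and 1.47 in the VCaP-CT-ER libraries, 0.493, 0.602 and 0.595 in the VCaP-CT-BR libraries, and 0.656, 0.705 and 0.524 in the VCaP-CT-BR-ER libraries. The VCaP-T libraries stood far above the rest and VCaP-CT-ER above the remaining 3 sublines, which overlapped each other. ISG20 fell 33.6-fold at the low-testosterone step (log2 -5.07 ± 0.13, adjusted p = 4.73e-18, edgeR) and rose 3.22-fold at the first enzalutamide step (log2 1.69 ± 0.18, adjusted p = 4.77e-08), while at the second it differed by 1.11-fold (adjusted p = 0.64). KLK3, the androgen-induced gene for prostate-specific antigen, was also highest in VCaP-T with VCaP-CT-ER next: its means were 3560 and 521 CPM there and at most 40 CPM elsewhere. Its part in the ISG20 result was not tested, and the 13 tested neighbours of ISG20 on chromosome 15 had a median of 0.04 at the low-testosterone step.

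MX1 had 0.606, 0.599 and 0.259 CPM in the VCaP-T libraries, 1.48, 1.59 and 1.4 in the VCaP-CT libraries, 1.04, 1.04 and 0.944 in the VCaP-CT-ER libraries, 1.74, 1.86 and 1.86 in the VCaP-CT-BR libraries, and 1.53, 1.27 and 1.65 in the VCaP-CT-BR-ER libraries. VCaP-T was lowest, and MX1 rose 3.1-fold from there to VCaP-CT (log2 1.63 ± 0.23, adjusted p = 2.54e-06, edgeR). The fall of 1.47-fold at the first enzalutamide step (adjusted p = 0.0176, edgeR) lost the call without VCaP-CT-ER replicate 3 (0.057) or VCaP-CT replicate 2 (0.0656). The 19 tested neighbours of MX1 on chromosome 21 had a median of -0.81 (log2) at that step, with 1 up and 12 down, against -0.56 for MX1. MX2, its paralogue, was highest in VCaP-CT with 1.21 to 1.82 CPM and fell 3.47-fold at the first enzalutamide step (adjusted p = 1.94e-05, edgeR) and 5.81-fold at the bicalutamide step (adjusted p = 1.9e-06).

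CMPK2 and RSAD2, which share a region of chromosome 2 and overlap on opposite strands, encode a mitochondrial nucleotide kinase and the antiviral radical enzyme viperin. CMPK2 rose 2.14-fold at the first enzalutamide step (log2 1.1 ± 0.17, adjusted p = 9.05e-06, edgeR), from a range of 1.37 to 1.96 CPM to one with its low end at 3.2 CPM. RSAD2 rose 1.83-fold at that step (adjusted p = 0.0207, edgeR, and up to 0.102 when VCaP-CT-ER replicate 1 or VCaP-CT replicate 1 or 3 was left out), at 0.242 to 0.828 CPM.

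IFIT2, an RNA-binding protein with tetratricopeptide repeats, had 4.05, 4.3 and 3.6 CPM in the VCaP-T libraries, 1.99, 2.31 and 2.18 in the VCaP-CT libraries, 1.49, 1.07 and 0.944 in the VCaP-CT-ER libraries, 0.778, 0.733 and 0.768 in the VCaP-CT-BR libraries, and 0.947, 0.922 and 0.944 in the VCaP-CT-BR-ER libraries. It was highest in VCaP-T, then VCaP-CT, and lowest in the 3 antiandrogen-treated sublines. IFIT2 fell 1.84-fold at the low-testosterone step (adjusted p = 1.21e-05, edgeR), 1.84-fold at the first enzalutamide step (adjusted p = 7.95e-05) and 2.84-fold at the bicalutamide step (adjusted p = 5.08e-07). IFIT3 had 92 fragments in VCaP-T against 9 to 20 in each other subline, IFIT1 was at 0.235 to 0.651 CPM and IFIT5, the most abundant at 12.1 to 16.2 CPM, passed the test at none of the 4 steps. IFIT1, IFIT2 and IFIT3 overlap LIPA, an abundant gene on the other strand, and their counts are uncertain for that reason as well as for their likeness to each other.

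IFITM3, a membrane protein that blocks viral fusion, had 0.826, 1.09 and 1.69 CPM in the VCaP-T libraries, 2.11, 2.02 and 1.82 in the VCaP-CT libraries, 0.0414, 0.167 and 0.0497 in the VCaP-CT-ER libraries, 1.66, 1.88 and 2.03 in the VCaP-CT-BR libraries, and 2.31, 2.66 and 2.73 in the VCaP-CT-BR-ER libraries. In VCaP-CT-ER the 3 libraries held 12 fragments in all, between 2 and 8 each, while VCaP-CT libraries held 206 and VCaP-CT-BR libraries 218. IFITM3 fell 21.8-fold at the first enzalutamide step (log2 -4.45 ± 0.35, adjusted p = 4.52e-10, edgeR), whereas the second such step gave 1.38-fold higher levels that did not pass the test (adjusted p = 0.0601), although they did with no filter on low counts (0.0285) or only the libraries compared (0.0171). All but that subline lay within 0.826 to 2.73 CPM. Of 43 tested genes within 1 Mb on chromosome 11, 0 rose and 30 fell at the first enzalutamide step, with a median of -0.48 and quartiles of -0.89 and -0.37. The rise at the low-testosterone step, 1.62-fold (adjusted p = 0.0079, edgeR), was not past the threshold without VCaP-T replicate 1 (0.0635). IFITM2, its close paralogue, had 86 fragments in VCaP-T and 3 to 32 in each other subline, and IFITM1 had 4 in all. IFITM1 and IFITM2 overlap on the same strand, so shared fragments could not be assigned to one of them and both levels are uncertain. BST2, the virus-tethering protein tetherin, fell at the bicalutamide step from 0.342 to 0.615 CPM to between 0.0262 and 0.198 CPM (adjusted p = 0.00131, edgeR).

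ISG15 is a ubiquitin-like tag, HERC5 the ligase that attaches it, HERC6 a related protein and USP18 the protease that removes it and also dampens type I receptor signalling. ISG15 had 6.41, 5.55 and 6.54 CPM in the VCaP-T libraries, 5.19, 5.75 and 4.75 in the VCaP-CT libraries, 2.98, 2.24 and 1.69 in the VCaP-CT-ER libraries, 2.31, 3.77 and 3.07 in the VCaP-CT-BR libraries, and 2.53, 2.68 and 2.94 in the VCaP-CT-BR-ER libraries. VCaP-T and VCaP-CT overlapped and stood above the 3 antiandrogen-treated sublines, which overlapped each other. ISG15 fell 2.25-fold at the first enzalutamide step (log2 -1.17 ± 0.17, adjusted p = 4.02e-06, edgeR) and 1.72-fold at the bicalutamide step (log2 -0.78 ± 0.17, adjusted p = 0.000485), and the second enzalutamide step did not pass (adjusted p = 0.482).

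HERC5 had 3.17, 3.35 and 2.8 CPM in the VCaP-T libraries, 6.31, 5.18 and 6.2 in the VCaP-CT libraries, 5.28, 5.87 and 5.61 in the VCaP-CT-ER libraries, 11.8, 12.2 and 11.2 in the VCaP-CT-BR libraries, and 15.9, 14.4 and 16.5 in the VCaP-CT-BR-ER libraries. Its 2 highest sublines were those with a bicalutamide history. HERC5 rose 1.9-fold at the low-testosterone step (log2 0.93 ± 0.11, adjusted p = 1.46e-07, edgeR), 1.99-fold at the bicalutamide step (log2 0.99 ± 0.09, adjusted p = 1.37e-08) and 1.33-fold further at the second enzalutamide step (log2 0.41 ± 0.08, adjusted p = 0.000398), and VCaP-CT-ER overlapped VCaP-CT (adjusted p = 0.506). HERC6 rose 1.41-fold at the low-testosterone step (adjusted p = 1.6e-06, edgeR), 1.19-fold at the first enzalutamide step (adjusted p = 0.00245) and 1.29-fold at the second enzalutamide step (adjusted p = 8.37e-05).

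USP18 had 9.08, 8.57 and 8.62 CPM in the VCaP-T libraries, 3.96, 3.73 and 3.07 in the VCaP-CT libraries, 3.6, 3.43 and 3.95 in the VCaP-CT-ER libraries, 4.28, 4.89 and 5.3 in the VCaP-CT-BR libraries, and 3.96, 4.42 and 3.62 in the VCaP-CT-BR-ER libraries. VCaP-T was apart from all others, and USP18 fell 2.44-fold at the low-testosterone step (log2 -1.29 ± 0.11, adjusted p = 1.61e-09, edgeR). The rise at the bicalutamide step was 1.35-fold (adjusted p = 0.004, edgeR). The conjugating enzyme for ISG15, UBE2L6, was at 9.64 ± 1.14 CPM for VCaP-T, 2.7 ± 0.0966 for VCaP-CT and 8.67 ± 0.234 after the first enzalutamide step, and near 2 CPM in both sublines with a bicalutamide history. It fell 3.57-fold at the low-testosterone step (adjusted p = 3.54e-12, edgeR) and rose 3.21-fold at the first enzalutamide step (adjusted p = 1.79e-11), while ISG15 itself fell there.

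IFI35 and IFI44 are interferon-induced proteins of less settled function. IFI35 had 4.93, 6.02 and 5.67 CPM in the VCaP-T libraries, 1.96, 2.02 and 2.26 in the VCaP-CT libraries, 1.8, 1.38 and 1.47 in the VCaP-CT-ER libraries, 1.37, 2.2 and 1.81 in the VCaP-CT-BR libraries, and 3.81, 3.88 and 3.91 in the VCaP-CT-BR-ER libraries. VCaP-T was highest, VCaP-CT-BR-ER next, and the remaining 3 lay between 1.37 and 2.26 CPM. It fell 2.66-fold at the low-testosterone step (log2 -1.41 ± 0.14, adjusted p = 1.68e-08, edgeR) and rose 2.15-fold at the second enzalutamide step (log2 1.11 ± 0.15, adjusted p = 3.03e-06). A lower level in VCaP-CT-ER than VCaP-CT (1.34-fold, adjusted p = 0.0296, edgeR) lost the call when VCaP-CT-ER replicate 2 or 3 or VCaP-CT replicate 2 or 3 was left out (0.122, 0.0851, 0.0527 and 0.125) or no filter on low counts was used (0.0621).

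IFI44 had 1.68, 1.8 and 2.26 CPM in the VCaP-T libraries, 2.14, 2.02 and 1.98 in the VCaP-CT libraries, 2.34, 2.53 and 3.4 in the VCaP-CT-ER libraries, 3.27, 2.75 and 3 in the VCaP-CT-BR libraries, and 0.899, 1.19 and 1.49 in the VCaP-CT-BR-ER libraries. VCaP-CT-BR-ER lay below every other subline, 2.52-fold under VCaP-CT-BR (log2 -1.33 ± 0.18, adjusted p = 4.78e-06, edgeR). IFI44 rose 1.47-fold at the bicalutamide step (adjusted p = 0.00989, edgeR). The 1.34-fold rise at the first enzalutamide step (adjusted p = 0.0392, edgeR) was not past the threshold without VCaP-CT-ER replicate 3 (0.203) or any one VCaP-CT library (0.0529 to 0.0765). The 12 tested neighbours of IFI44 on chromosome 1 had medians of 0.71 and 0.58 at the first enzalutamide and the bicalutamide step, where IFI44 itself changed by 0.42 and 0.55. IFI6, a mitochondrial antiapoptotic protein, rose 1.78-fold at the first enzalutamide step (adjusted p = 0.000532, edgeR).

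LGALS3BP had 133, 122 and 148 CPM in the VCaP-T libraries, 323, 356 and 284 in the VCaP-CT libraries, 142, 140.2 and 123 in the VCaP-CT-ER libraries, 224, 267 and 263 in the VCaP-CT-BR libraries, and 245, 254 and 234 in the VCaP-CT-BR-ER libraries. VCaP-CT was highest, VCaP-T and VCaP-CT-ER lowest and overlapping. It rose 2.39-fold at the low-testosterone step (log2 1.26 ± 0.08, adjusted p = 2.47e-11, edgeR), fell 2.38-fold at the first enzalutamide step (log2 -1.25 ± 0.08, adjusted p = 3.38e-11) and 1.28-fold at the bicalutamide step (adjusted p = 0.00103), and differed by 1.03-fold at the second enzalutamide step (adjusted p = 0.713). SP100, a nuclear body protein, had 147 fragments in VCaP-T and 12 to 25 in each other subline. SAMD9, a cytosolic growth inhibitor, had 51 fragments in VCaP-CT, the subline through which it entered the test, against 21 in VCaP-T, and 11 after the second enzalutamide step.

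The list of 13 genes that respond mainly to interferon gamma had 5 tested members, since the GBP1, GBP2, GBP4, GBP5 and CXCL9 genes were at most 0.0939 CPM by subline mean. Of the 5, too few to set against the background of 21.2% to 33.1% up and 21.7% to 32.2% down, 1 rose and 3 fell at the low-testosterone step, 2 rose and 2 fell at both the first enzalutamide and the bicalutamide step, and 2 rose and 0 fell at the second enzalutamide step. CXCL10, a chemokine, fell 11.6-fold at the low-testosterone step, starting at 4.52 ± 0.606 CPM (adjusted p = 1.84e-11, edgeR). SECTM1, a secreted T-cell costimulator, fell 2.45-fold at that step (adjusted p = 1.9e-09, edgeR) and rose 2.34-fold at the first enzalutamide step (adjusted p = 4.84e-09).

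Whether enzalutamide resistance changed these genes alike with and without earlier bicalutamide resistance was tested as the difference between the steps, the first minus the second. It was called for 21 of 35 genes, 11 with a higher value at the first step and 10 with a lower one (60% of the tested genes, background 49.7%, of which 24.5% higher and 25.2% lower). The median difference was -0.13 against -0.01 for all genes. IFITM3 differed most, by -4.91 ± 0.41 on the log2 scale (adjusted p = 3.25e-09, edgeR), and OAS1 by -1.96 ± 0.13 (adjusted p = 1.63e-10). TLR3 differed by 1.56 ± 0.19 (adjusted p = 8.05e-07, edgeR) and ISG20 by 1.53 ± 0.28 (adjusted p = 0.000121), both with the higher value at the first of them. IFI44 rose at the first step and fell at the second, a difference of 1.75 ± 0.25 (adjusted p = 6.41e-06, edgeR), and IFI35 did the reverse, with -1.53 ± 0.22 (adjusted p = 6.89e-06). The first-step calls of both were lost when certain single libraries were left out (adjusted p up to 0.203 for IFI44 and 0.125 for IFI35, edgeR). Of the genes with few fragments, MX2 differed by -2.95 ± 0.49 (adjusted p = 3.54e-05, edgeR), RSAD2 by 1.55 ± 0.44 (adjusted p = 0.00551) and BST2 by -1.79 ± 0.66 (adjusted p = 0.0303, or 0.0557 to 0.0978 without any one of 6 libraries).

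**Figure D4:**
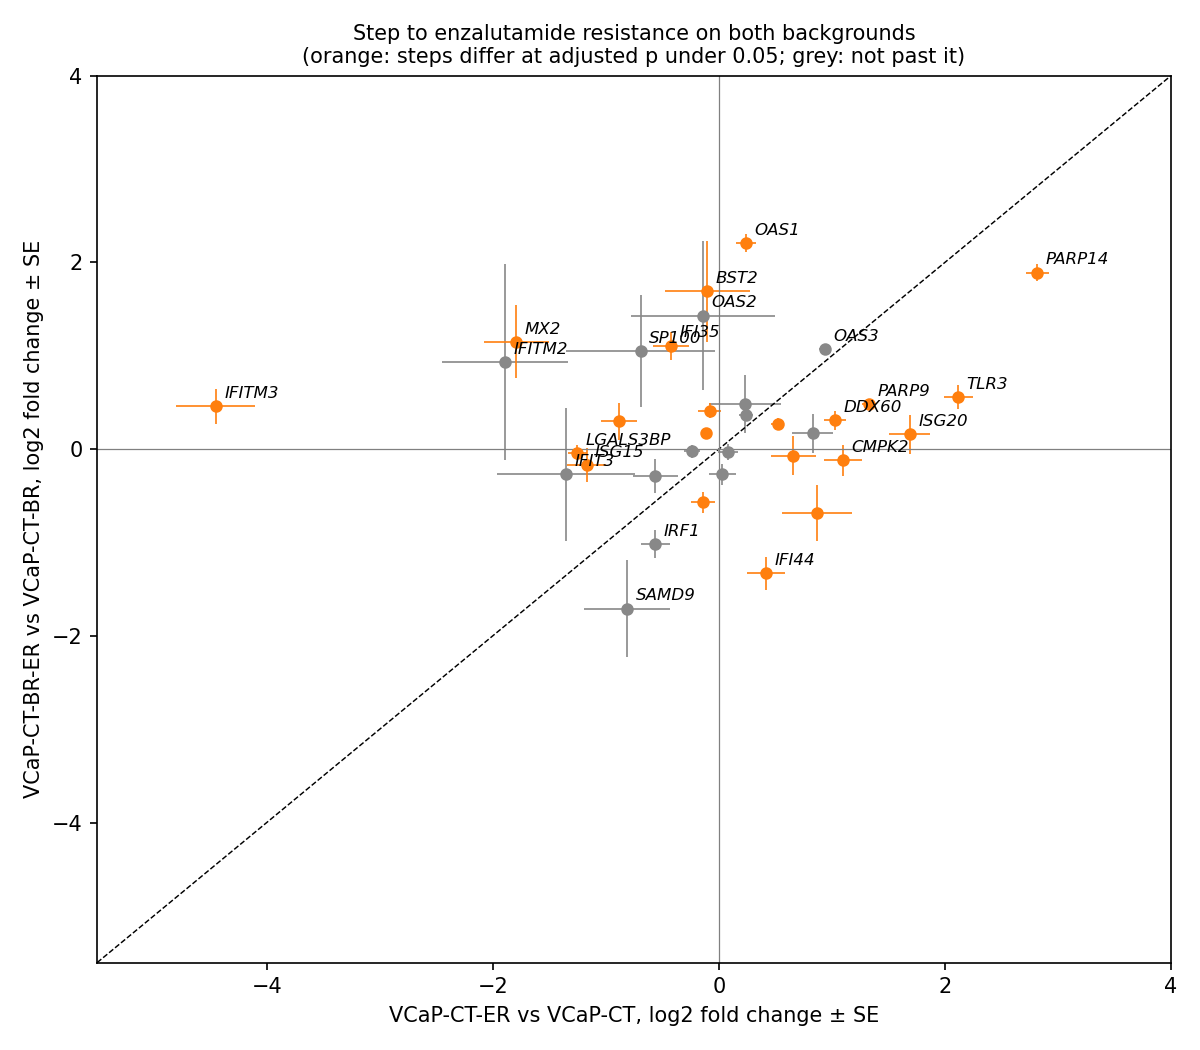
Each point is 1 tested gene with its log2 fold change ± SE at the first (horizontal) and the second (vertical) enzalutamide step, and the dashed line marks equal change. Orange points (21 genes) differed between the steps at an adjusted p under 0.05, with IFITM3 far left at -4.45 and PARP14 and TLR3 far right at 2.82 and 2.12, while OAS3 lies near the dashed line.

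To see whether single genes moved with their surroundings, each gene was set beside the tested non-member genes starting within 1 Mb. Over the 33 genes with at least 5 such neighbours, the neighbours' median log2 fold change ranged from -0.81 to 0.71 at the first enzalutamide step and from -1.23 to 0.27 at the second enzalutamide step, and it was beyond 0.5 in size for 6 and 2 genes. The neighbours of MX1 had the lowest median at the first of these and those of IFIH1 at the second.

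**Figure D5:**
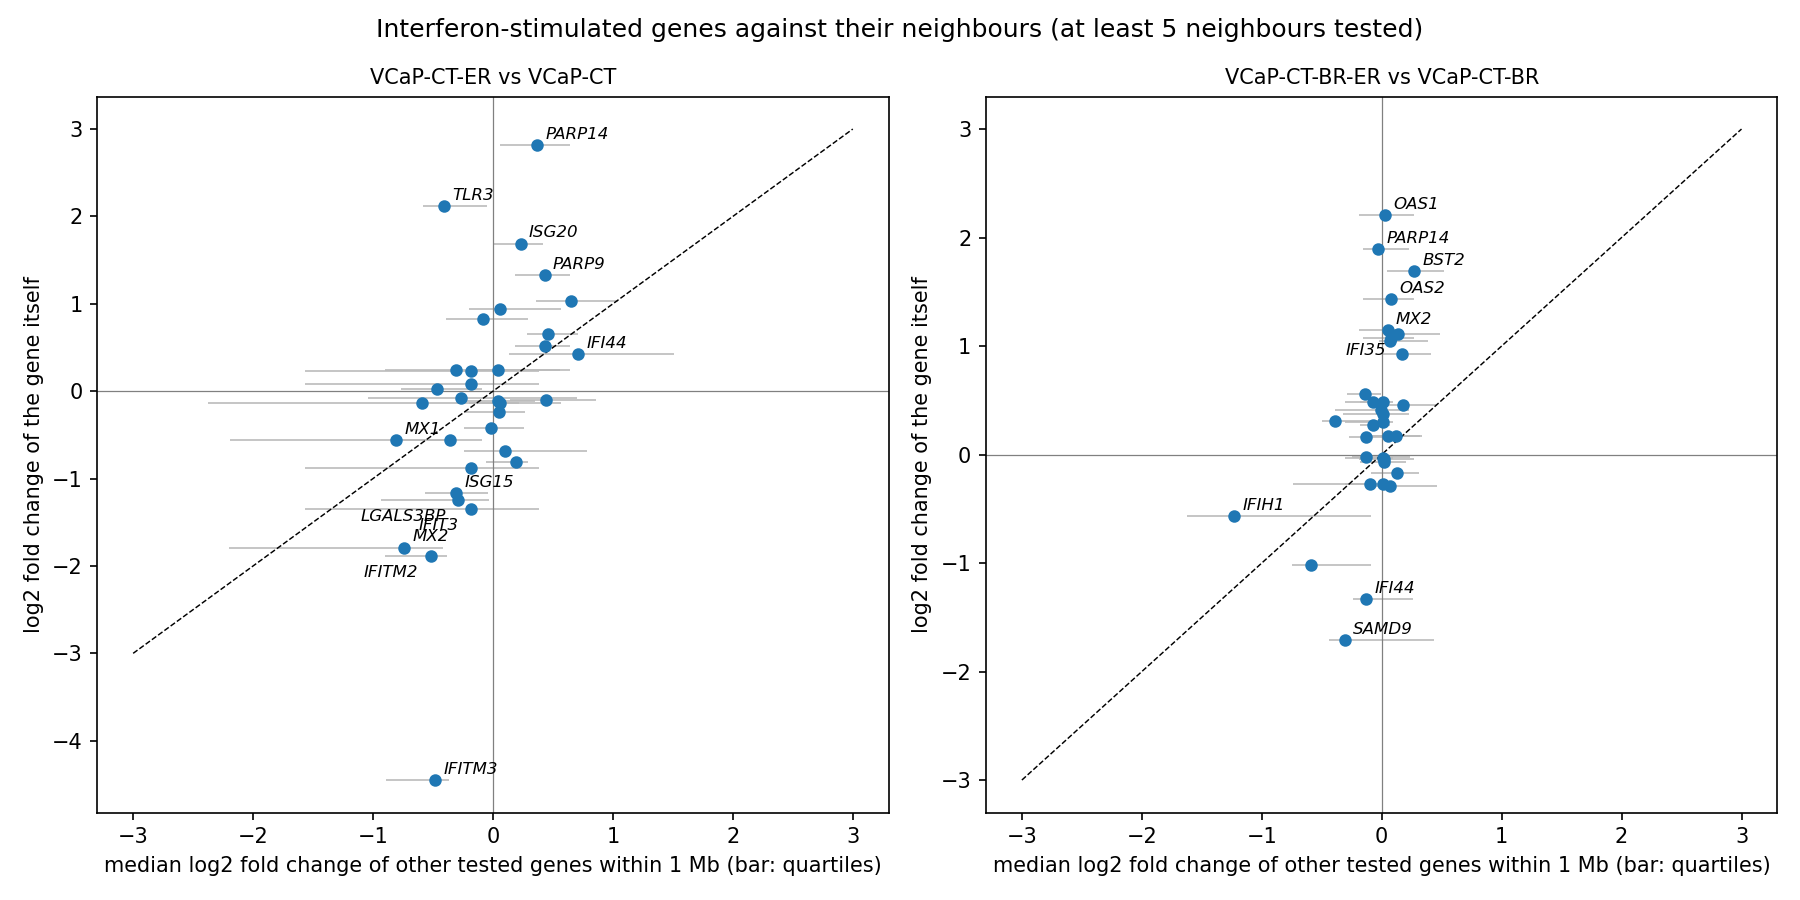
For the 33 genes with at least 5 tested neighbours, the gene's own log2 fold change (vertical) is plotted against the median of the other tested genes within 1 Mb (horizontal, bars from the 25th to the 75th percentile) at both enzalutamide steps, and the dashed line marks equal change. PARP14 (2.82 against 0.37) and OAS1 (2.21 against 0.03) lie far above the line and IFITM3 (-4.45 against -0.48) far below it.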

How the data were processed

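RNA sequencing was analysed for 15 libraries, 3 from each of 5 VCaP sublines. The deposited values were read counts per gene, which the authors made, per the file headers and the submitters' processing notes, with STAR 2.5.4b and featureCounts 1.6.2 on GENCODE 28 genes, counting paired fragments over exons without strand and leaving out multi-mapping ones. Reads that fit several family members equally well were therefore not counted, which can lower the IFIT, IFITM and OAS genes. How far any of them was lowered was not measured. No value was normalised before deposit. Gene names were added from reference tables, and 98.9% of identifiers had one.

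Counts were fitted over all 15 libraries with edgeR 4.0.16 (R 4.3.3): low genes were removed by filterByExpr with a minimum count of 10, library sizes were scaled by TMM, and the quasi-likelihood test was run with Benjamini-Hochberg adjustment over all 19621 genes, with 0.05 as threshold. DESeq2 1.42.0 and other scalings and filters were alternatives. The steps were tested on simulated counts first. Values in every library were given for the 6 genes with the largest change at each step among those called, with average log2 CPM of at least 0 and no overlap between the sublines, for the 6 with the largest step difference among those called at that average level, and for 10 anchor genes whatever their result (STAT2, IRF9, IRF7, IRF1, ISG15, IFIH1, TLR3, EIF2AK2, USP18 and MX1). DTX3L, SAMD9 and other low or neighbouring genes were given by range or fragment sums. The gene list, the pathway lists and this rule were chosen with earlier results of these data known. Promoter sequences were taken from RefSeq (GRCh38.p14), 250 bases before to 50 after the start, and 8 of the 43 genes were not analysed there.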

Additional observations from a re-analysis of the deposited data

Results flagged for a closer look

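The step to enzalutamide resistance differed between the VCaP-CT and the VCaP-CT-BR background, by a contrast of the steps in the same edgeR fit, for 21 of 35 tested genes. That was 60% of them, against 49.7% of all 19621 tested genes, so a difference of this kind was common throughout. Among called genes with average log2 CPM of at least 0, the 6 largest such differences, given as the log2 fold change at the first step minus that at the second, were as follows. IFITM3 differed by -4.91, with a fall at the first step that the second did not show. OAS1 differed by -1.96, with a rise of 4.62-fold at the second step against 1.18-fold at the first. IFI44 differed by 1.75 and IFI35 by -1.53, each with opposite signs at the steps, though the first-step call of each was lost when certain single libraries were left out. TLR3 differed by 1.56 and ISG20 by 1.53, both with the higher value at the first step. At lower levels MX2 differed by -2.95, BST2 by -1.79 and RSAD2 by 1.55. What underlies these differences was not tested, and the derivations cannot be told apart from the drugs.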

How the results depend on the processing

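The alternatives were another scaling (RLE size factors or the 75th percentile), DESeq2, no filter on low counts, at least 10 counts in every library, a fit of only the libraries compared, a replicate block, and leaving out each library in turn. No gene called in either fit changed direction: of 2417 values for single genes under these settings, 2295 kept their side of the threshold, 78 lost it and 44 gained it, over 41 of 175 gene and step pairs. Leaving out 1 library gave 21 to 24 genes called at the low-testosterone step, 18 to 24 at the first enzalutamide step, 17 to 19 at the bicalutamide step, 15 to 17 at the second enzalutamide step and 19 to 23 for the difference between the enzalutamide steps. The other settings gave 17 to 24, 20 to 25, 15 to 20, 15 to 18 and 19 to 22. Counts of genes called with at least a 2-fold change moved by over 1.5 times only with at least 10 counts in every library, where 25 of the genes were tested, to 7 at the low-testosterone step, 2 at the bicalutamide step and 8 for the difference. The median over the genes changed sign under some settings at the first 3 steps and for the difference, and was 0.16 to 0.3 at the second enzalutamide step. The labels share replicate numbers, but same-numbered libraries deviated together at r of -0.336 to 0.31, so the numbers do not pair them. With a replicate block 24, 24, 19, 17 and 21 genes were called in the same order, and the calls that changed were the step difference of IRF9 (adjusted p 0.0603, edgeR) and of EIF2AK2 (0.0486) and the low-testosterone step of IFIH1 (0.0498). Depth limited IFITM2, IFIT3, SAMD9, OAS2 and SP100 most among the tested genes, with fewer than 10 fragments in 7 to 11 of the 15 libraries.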
